A study of Homo sapiens with 6 samples.

Results

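The NRF2 antioxidant pathway was examined in LX-2 cells through 9 genes chosen by symbol, namely the gene of the transcription factor NRF2 (NFE2L2), the gene of its inhibitor (KEAP1) and 7 target genes (NQO1, HMOX1, GCLC, GCLM, TXNRD1, SRXN1 and OSGIN1). All 9 were found among the 16907 gene symbols of the count files, and all 9 passed the filter on low counts. LX-2 is an established human line of hepatic stellate cells, which store retinoids in healthy liver and deposit scar collagen once activated. The cells, grown in medium with serum, had been transfected for 72 h with a control small interfering RNA (siControl) or with a pool of small interfering RNAs against OGT (siOGT), each used at 20 nM. OGT, the O-GlcNAc transferase, places a single N-acetylglucosamine on nuclear and cytosolic proteins. Polyadenylated RNA was sequenced in 3 libraries per group, from 3 biological replicates, and the libraries of one replicate number form a pair. Per the study's reagent list, the control and the OGT small interfering RNAs came from different suppliers, and cells without transfection are not part of the comparison.

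NRF2 is a basic leucine zipper factor whose protein is normally captured by KEAP1, an adaptor of the CUL3 ubiquitin ligase, and degraded. Oxidants and electrophiles modify cysteines of KEAP1, so that NRF2 escapes, pairs with a small MAF protein and binds antioxidant response elements near genes for glutathione synthesis, thioredoxin reduction, quinone reduction and haem breakdown. Because the protein is controlled largely by turnover, the mRNA level of NFE2L2 is not a measure of NRF2 protein, which was not measured here. In stellate cells the pathway is known as a defence against the oxidative stress that accompanies liver injury.

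The libraries held between 25996770 and 27966801 expected counts, and between 239 and 8579 counts fell on a member in a library. At the lowest of these, 239 counts of OSGIN1, counting error alone amounts to 6.47% of the value. In bulk RNA of this kind, fewer cells that express a gene and less of its RNA per cell cannot be told apart. OGT itself fell from 145 ± 28.9 to 32.0 ± 6.94 CPM, that is counts scaled to the library's size (SD, n = 3 each), with every siOGT library below every siControl library (edgeR adjusted p-value 2.712e-12). Of 10 stellate cell and myofibroblast markers, 8 reached 1 CPM in at least 1 library, led by VIM and COL1A1. Among these ACTA2, which the study uses as a marker of myofibroblasts, was low, with means of 6.51 CPM in siControl and 7.63 CPM in siOGT. LRAT and DES, which did not reach 1 CPM, had at most 1 and 6 counts in any library. Markers of hepatocytes, leukocytes and endothelium, each list on its own, summed to at most 4.39, 9.39 and 7.69 CPM in any library. The cholangiocyte list summed to between 88.6 and 127 CPM, nearly all of it from SOX9, whereas EPCAM and KRT19 had at most 3 and 4 counts.

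The 9 genes did not move in one direction. In siOGT against siControl, NFE2L2 and the targets HMOX1, OSGIN1 and SRXN1 rose, by 1.51-fold at most (HMOX1), whereas the target NQO1 fell to 0.800 of its siControl level. KEAP1, TXNRD1, GCLC and GCLM did not pass the test. Calls rest on edgeR's quasi-likelihood test with the replicate as a block, at a Benjamini-Hochberg adjusted p-value, over all genes tested, of 0.05 or less. By this rule 5 of 9 members were called, against 25.4% of the 14853 genes tested. Of these, 4 members were called higher and 1 lower, and each direction held 12.7% of all genes tested. The genes tested include ones with low counts, and shares at like expression levels were not compared. Under a stricter filter on counts (filterByExpr) edgeR again called 5 members, against 27.9% of all genes. The median log2 fold change was 0.051 over the members and 0.0068 over all genes tested. Pairing the libraries mattered here, since without the replicate block edgeR called 0 members, against 0.875% of all genes, and DESeq2 called 2, against 5.72%. In that edgeR fit 4 members had an unadjusted p-value of 0.05 or less. Without replicate 1 edgeR called 2 members, NFE2L2 and HMOX1, both higher, against 12.5% of all genes, and the lower call of NQO1 was lost.

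**Figure D1:**
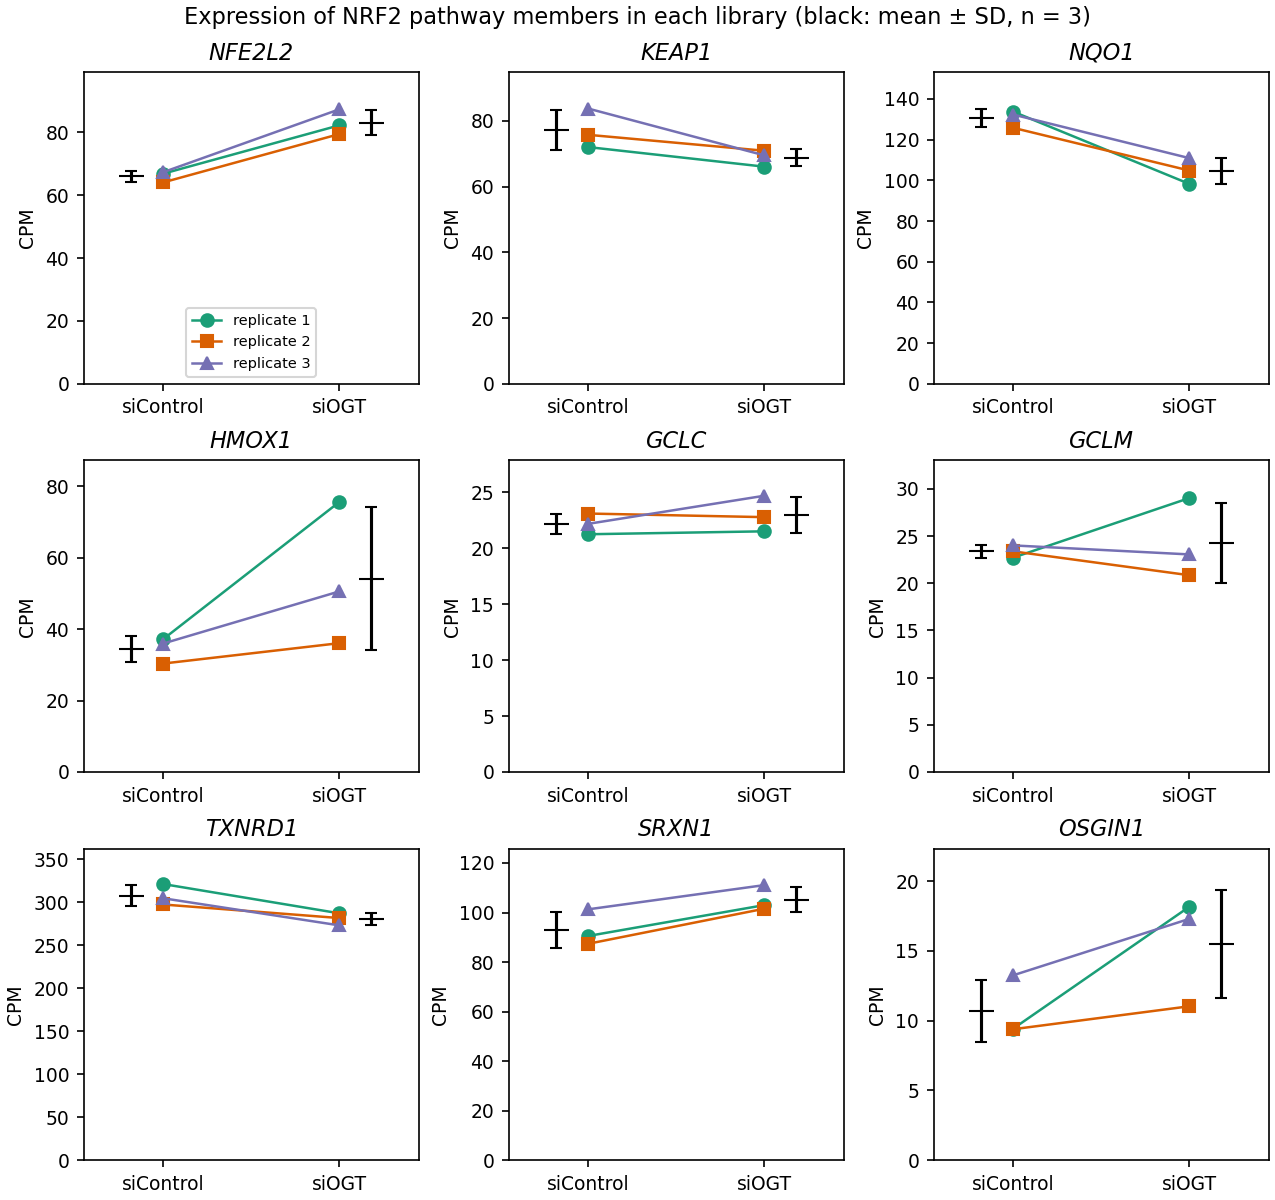
Level of each member in each library, in CPM from 0, for siControl and siOGT. Lines join the libraries of one replicate, and the black bars give mean ± SD (n = 3). NFE2L2 and SRXN1 in siOGT lie above all siControl libraries, NQO1, KEAP1 and TXNRD1 lie below them, and HMOX1, OSGIN1 and GCLM have their highest value in siOGT replicate 1.

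The groups did not overlap for 5 of 9 members (NFE2L2, SRXN1, NQO1, KEAP1 and TXNRD1), against 23.9% of all genes tested. These 5 genes are not the 5 called ones. HMOX1 and OSGIN1 were called although their groups overlapped, and KEAP1 and TXNRD1 had separate groups but were not called. The sign was the same in 3 of 3 pairs for 7 of 9 members, all but GCLC and GCLM, against 54% of all genes tested.

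The regulators were considered first. NFE2L2 (ENSG00000116044.17, chromosome 2, 177218667 to 177392756, minus strand, hg38) had 66.9, 64.1 and 67.4 CPM in siControl replicates 1, 2 and 3, and 82.3, 79.5 and 87.4 CPM in siOGT replicates 1, 2 and 3. All 3 siOGT libraries lay above all 3 siControl libraries, and the log2 ratios within pairs were close, at 0.30, 0.31 and 0.38. Fitted over the pairs, NFE2L2 rose by 0.33 on the log2 scale (SE 0.065, 95% confidence interval 0.19 to 0.46, edgeR adjusted p-value 0.00133). NFE2L2 was also called when any of the 3 pairs was left out. Over 23.4% of its merged exonic bases NFE2L2 overlaps HNRNPA3, a gene of the other strand. HNRNPA3 fell by 0.30 on the log2 scale (edgeR adjusted p-value 0.00255). Reads were assigned to genes by strand, and the part of HNRNPA3 in the NFE2L2 result was not tested. A long non-coding RNA gene model on the same strand as NFE2L2, ENSG00000213963, shares 13.6% of the exonic bases of NFE2L2. The annotation gives it no symbol, so whether it was counted under another name was not checked. Strand cannot separate its reads from those of NFE2L2, and its part in the NFE2L2 result was not tested.

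KEAP1 (ENSG00000079999.14, chromosome 19, 10486125 to 10503558, minus strand) had 72.0, 75.7 and 83.7 CPM in siControl and 66.0, 70.9 and 69.5 CPM in siOGT. It was lower in 3 of 3 pairs, and the highest siOGT library stayed just below the lowest siControl library. KEAP1 had a log2 fold change of -0.16 (95% confidence interval -0.30 to -0.023). The edgeR adjusted p-value of 0.0832 missed the threshold, so a change was not shown, although the interval, which is not adjusted for the number of genes, does not include 0.

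HMOX1 encodes haem oxygenase 1, which opens the haem ring to biliverdin, carbon monoxide and iron, and it had the highest fold change among the members. HMOX1 (ENSG00000100292.18, chromosome 22, 35380361 to 35394214, plus strand) had 37.2, 30.4 and 36.0 CPM in siControl and 75.6, 36.1 and 50.6 CPM in siOGT. The siControl libraries were close together, whereas the siOGT libraries were spread out, and siOGT replicate 2 lay below siControl replicate 1. Within pairs the ratio was 2.03, 1.19 and 1.41. The fitted log2 fold change of HMOX1 was 0.60 (SE 0.10, 95% confidence interval 0.38 to 0.82, edgeR adjusted p-value 4.81e-04), and without replicate 1 it was 0.37 (adjusted p-value 0.0174). With no block it was not called, at adjusted p-values of 0.181 (edgeR) and 0.0555 (DESeq2).

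OSGIN1 encodes an oxidative stress induced growth inhibitor, and its values ran in the same order over the pairs as those of HMOX1. OSGIN1 (ENSG00000140961.14, chromosome 16, 83931311 to 83966332, plus strand) had 9.43, 9.39 and 13.3 CPM in siControl and 18.2, 11.0 and 17.3 CPM in siOGT. The level in siOGT replicate 2 lay within the range of siControl, and the log2 ratios within pairs were 0.94, 0.23 and 0.38. OSGIN1 rose by 0.53 on the log2 scale (SE 0.12, 95% confidence interval 0.27 to 0.78, edgeR adjusted p-value 0.00397). Without replicate 1 it was 0.31 and the call was lost (adjusted p-value 0.126), and without the block the adjusted p-value was 0.226. OSGIN1 shares 8.22% of its exonic bases with MLYCD on the same strand, where reads cannot be assigned by position alone. MLYCD, the gene of malonyl-CoA decarboxylase, rose as well, from 5.05 to 6.94 CPM (log2 fold change 0.47, edgeR adjusted p-value 0.0384), and its part in the OSGIN1 result was not tested.

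SRXN1 encodes sulfiredoxin, which returns over-oxidised peroxiredoxins to their active form. SRXN1 (ENSG00000271303.2, chromosome 20, 646615 to 653200, minus strand) had 90.5, 87.4 and 101 CPM in siControl and 103, 102 and 111 CPM in siOGT. The lowest siOGT library, replicate 2 with 101.5 CPM, was barely above the highest siControl library, replicate 3 with 101.3 CPM. SRXN1 had a log2 fold change of 0.18 (SE 0.064, 95% confidence interval 0.045 to 0.31), and the edgeR adjusted p-value, 0.0478, was just inside the threshold. Under 6 of 10 alternative settings the call was lost, among them DESeq2 with the replicate term (adjusted p-value 0.0993) and edgeR with median-ratio size factors (0.0542). On the same strand, 90.7% of its exonic bases are shared with another protein-coding gene model, ENSG00000270299.

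NQO1, the enzyme that reduces quinones with NAD(P)H and a much used readout of NRF2, was the only member called lower. NQO1 (ENSG00000181019.13, chromosome 16, 69706996 to 69726668, minus strand) had 134, 126 and 132 CPM in siControl and 98.2, 105 and 111 CPM in siOGT. All siOGT libraries lay below all siControl libraries, and the log2 ratios within pairs were -0.45, -0.26 and -0.25. The fit gave a log2 fold change of -0.32 (SE 0.066, 95% confidence interval -0.46 to -0.18, edgeR adjusted p-value 0.00187). NQO1 was no longer called by edgeR without replicate 1 (-0.26, adjusted p-value 0.0747) or with no block (0.107), but was called by DESeq2 with and without the block (7.64e-04 and 0.0222). The intervals of NQO1 and HMOX1 thus lay on opposite sides of 0.

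TXNRD1 encodes the cytosolic thioredoxin reductase, which passes electrons from NADPH to thioredoxin. TXNRD1 (ENSG00000198431.18, chromosome 12, 104215779 to 104350307, plus strand) had 321, 297 and 304 CPM in siControl and 287, 281 and 273 CPM in siOGT. The groups did not overlap and all 3 pairs were lower in siOGT, but by little, and the log2 fold change was -0.13 (95% confidence interval -0.27 to 0.0026, edgeR adjusted p-value 0.144).

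GCLC and GCLM encode the catalytic and the modifier subunit of glutamate-cysteine ligase, the first step of glutathione synthesis. GCLC (ENSG00000001084.13, chromosome 6, 53497341 to 53616970, minus strand) had 21.2, 23.1 and 22.2 CPM in siControl and 21.5, 22.8 and 24.7 CPM in siOGT. Its log2 fold change of 0.051 had a 95% confidence interval from -0.12 to 0.22 (edgeR adjusted p-value 0.697). GCLM (ENSG00000023909.10, chromosome 1, 93885199 to 93909456, minus strand) had 22.7, 23.4 and 24.0 CPM in siControl and 29.02, 20.8 and 23.0 CPM in siOGT. Only siOGT replicate 1 stood above the siControl range, the same library in which HMOX1 and OSGIN1 were highest, and the other pairs were lower in siOGT. The log2 fold change was 0.047 (95% confidence interval -0.15 to 0.25, edgeR adjusted p-value 0.767). For GCLC and GCLM the intervals leave out a rise of the size fitted for HMOX1.

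**Figure D2:**
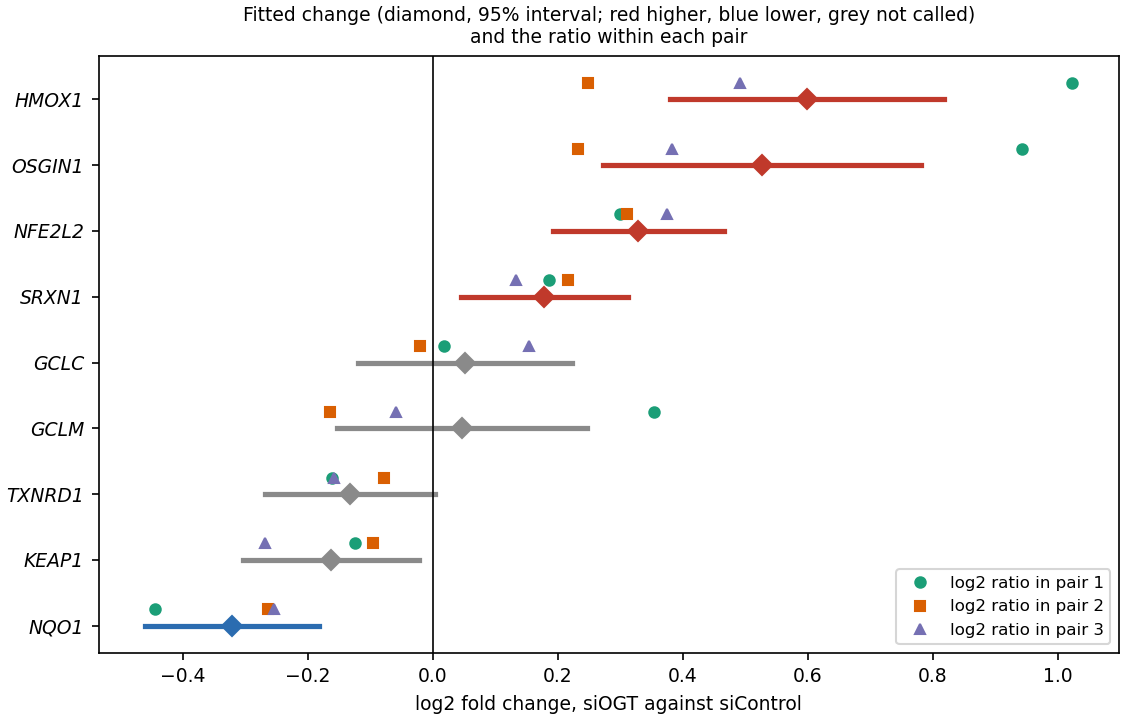
Log2 fold change of siOGT against siControl for each member (diamond) with its 95% confidence interval, and the log2 ratio within each pair (small symbols, prior count 2). HMOX1, OSGIN1, NFE2L2 and SRXN1 lie to the right of 0, NQO1 lies to the left, and the pairs of HMOX1 and OSGIN1 are spread more widely than those of NFE2L2.

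The pairs therefore differed for some members and not for others. In pair 1 the log2 ratio was 1.02 for HMOX1, 0.94 for OSGIN1 and 0.35 for GCLM. In pair 2 the same genes had 0.25, 0.23 and -0.16, and in pair 3 they had 0.49, 0.38 and -0.058. These 3 genes shared one order, pair 1 above pair 3 above pair 2, which was picked out after the values were seen. OGT had a log2 ratio of -2.15, -2.34 and -2.05 in pairs 1, 2 and 3. Whether the depth of OGT loss bears on the differences between pairs was not tested.

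Levels were then compared between the members, per kilobase (kb) of merged exons in GENCODE. In siControl TXNRD1 (45.8 ± 1.82 CPM per kb) and NQO1 (43.96 ± 1.43) came first (SD, n = 3 each) and their libraries overlapped. SRXN1 (36.8), KEAP1 (21.6) and HMOX1 (14.96) followed, each separate from its neighbours. NFE2L2 (4.42) and GCLM (4.31) overlapped with each other, and GCLC (2.57) and OSGIN1 (1.92) were lowest. In siOGT the mean of SRXN1 (41.6) was above that of NQO1 (35.2), without overlap, and overlapped with that of TXNRD1 (41.8). HMOX1 (23.5) was above KEAP1 (19.3) by its mean, but the libraries overlapped. The order depends on the length used. Per kb of the longest transcript NFE2L2 had 13.0 CPM per kb in siControl and was clearly above GCLC and GCLM, and SRXN1 and NQO1 overlapped in siOGT.

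**Figure D3:**
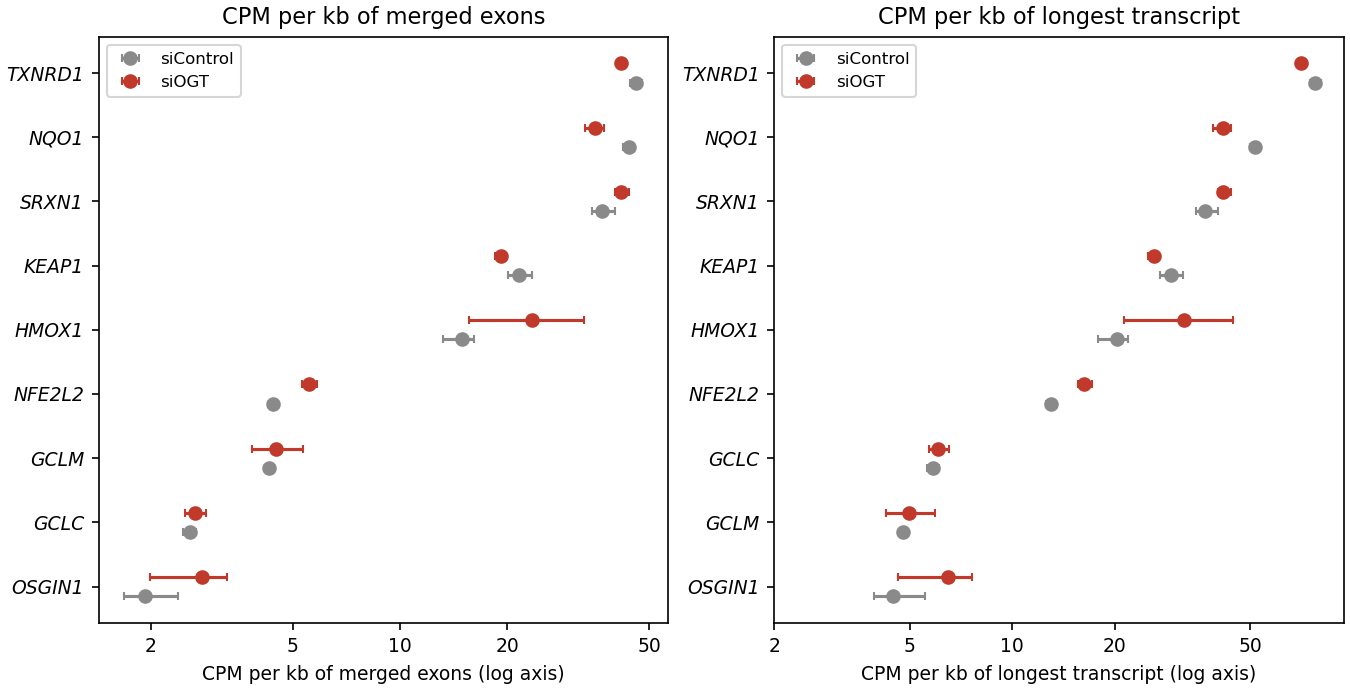
Level of the members in CPM per kb on a log axis, by merged exon length (left) and by the longest transcript (right), for siControl (grey) and siOGT (red). Points are means and bars run from the lowest to the highest of 3 libraries; TXNRD1 is the top member in both panels, and NFE2L2 moves most between them.

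Promoters were inspected for the core of the antioxidant response element, TGACNNNGC, on both strands. RefSeq promoter windows (GRCh38.p14, from 250 bases before to 50 bases after the start) were found for 8 of 9 members, without HMOX1. The core was present in the window of 2 of 8, GCLM and TXNRD1, against 14.7% of 12812 genes with a window. In the 1000 bases upstream of the start it was present for 5 of 8 (NQO1, GCLC, GCLM, TXNRD1 and OSGIN1), against 33.3% of genes. The called genes NFE2L2 and SRXN1 and the uncalled KEAP1 had none there. Only the start of the RefSeq window was used for each gene, so other annotated starts were not searched. The matches below are shown because they let the called NQO1 and OSGIN1 be set beside the uncalled GCLM, TXNRD1 and GCLC. Each is 5′ to 3′ on the strand of the motif, with the core in capitals:
NQO1: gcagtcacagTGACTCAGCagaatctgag
OSGIN1: agacaatctgTGACTTGGCcccagttttc
GCLM: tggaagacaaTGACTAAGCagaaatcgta
TXNRD1: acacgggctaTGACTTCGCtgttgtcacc
TXNRD1, at the start: ctgtgggaacTGACGGAGCcgaaggacgc
GCLC: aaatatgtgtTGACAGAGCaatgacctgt
GCLC, distal: cgcctccccgTGACTCAGCgctttgtgcg
The cores begin 455 bases upstream of the start for NQO1 (chr16:69726997-69727025, minus strand), 557 bases for OSGIN1 (chr16:83952673-83952701, plus strand), 34 bases for GCLM (chr1:93909446-93909474, plus strand), 870 bases for GCLC (chr6:53545953-53545981, plus strand) and 99 bases for TXNRD1 (chr12:104215670-104215698, plus strand). The other TXNRD1 match begins 8 bases upstream and reaches the start (chr12:104215761-104215789, minus strand). Each distance is that of the base farthest from the start. The distal GCLC match, 1 of 5 within 5000 bases upstream, lies 3156 bases out (chr6:53548239-53548267, plus strand) and was added after the sequences were seen because it has the same letters as that of NQO1. TGACTCAGC was found within 5000 bases upstream of 2 of 8 members, NQO1 and GCLC, and of 6.81% of genes, while the core itself was found there in 83.9%. The letters TGACTCA within it are also the recognition sequence of AP-1 factors. A match is a description of letters and does not show binding.

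The wider pathway was described with 7 lists of genes that hold 89 symbols. Of these, 84 were tested, GPX3, AKR1B10, AKR1C2 and ALDH3A1 had fewer than 10 counts in all, and GPX2 was not analysed here. Over the lists together 32 of 84 genes (38.1%) were called, 9 higher and 23 lower, against 25.4% of all genes tested. The median log2 fold change was -0.14 against 0.0068. With filterByExpr 32 were called, against 27.9% of all genes, and shares at like expression levels were not compared. DESeq2 with the replicate term called 24, with 7 higher and 17 lower, against 7.52% and 8.74% of all genes. Without replicate 1 the count was 16, with 6 higher and 10 lower, against 5.94% and 6.54% of all genes. Without the block edgeR called 1 (SESN2, with 25 at an unadjusted p-value of 0.05 or less), against 0.875% of all genes. DESeq2 without the block called 10, against 5.72% of all genes.

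**Figure D4:**
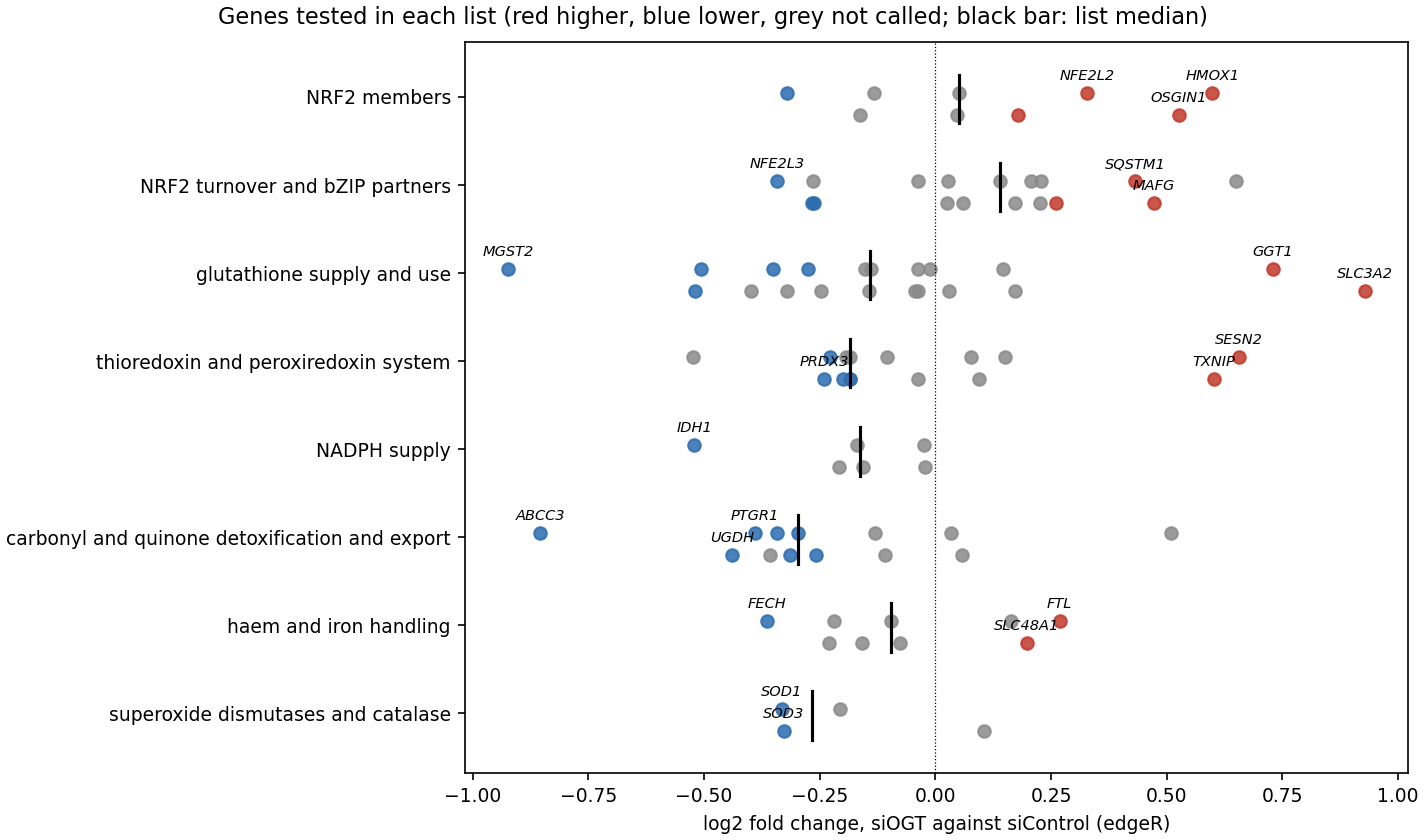
Log2 fold change of each gene tested, by list, with up to 3 called genes named per list. Red points were called higher, blue points lower and grey points were not called; the black bar is the list's median, which lies lowest for the carbonyl and quinone list.

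The first list held genes that act in NRF2 turnover, KEAP1 binders such as SQSTM1 among them, and basic leucine zipper partners or relatives of NRF2. Of these, 6 of 17 were called (35.3%, against 25.4% of all genes tested), 3 higher and 3 lower (12.7% of all genes each way). The median log2 fold change was 0.14. MAFG, a small MAF partner of NRF2, rose from 78.0 ± 11.7 to 109 ± 24.6 CPM (SD, n = 3 each; log2 fold change 0.47, edgeR adjusted p-value 9.712e-05). SQSTM1, the autophagy receptor p62 that binds KEAP1, rose from 498 ± 78.5 to 676 ± 133 CPM (0.43, 4.252e-04). Both rose in 3 of 3 pairs, although their groups overlapped. NFE2L3, a relative of NRF2, fell by 0.34 on the log2 scale (0.0196). SYVN1, a ubiquitin ligase of the endoplasmic reticulum, was not called (0.027, 0.802). Without replicate 1 the list had 3 calls, 2 of them higher, against 5.94% of all genes higher and 6.54% lower in that fit. NFE2L3 was not called without replicate 3 (-0.24, 0.130) or by DESeq2 with the replicate term (-0.35, 0.102).

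In the glutathione list 7 of 20 genes were called (35.0%, against 25.4% of all genes), 2 higher and 5 lower, with a median of -0.14. SLC3A2, the heavy chain that the cystine carrier and other amino acid carriers need, rose from 183 ± 46.9 to 351 ± 102 CPM (log2 fold change 0.93, edgeR adjusted p-value 6.146e-08), with log2 ratios of 0.97, 0.86 and 0.96 in the pairs. GGT1, which splits extracellular glutathione, rose by 0.73 on the log2 scale (0.00251) from a low level of 3.37 ± 0.521 CPM. MGST2, a microsomal glutathione transferase, fell by 0.92 (0.00197), also from a low level of 4.05 ± 0.272 CPM. GPX1, the most abundant uncalled gene of the list, had a log2 fold change of -0.038 (0.719). Without replicate 3 the list had 12 calls, 3 higher and 9 lower, against 11.4% and 12.4% of all genes.

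In the thioredoxin and peroxiredoxin list 6 of 15 genes were called (40.0%, against 25.4% of all genes), 2 higher and 4 lower, with a median of -0.18. SESN2, a stress-induced sestrin, rose from 39.1 ± 2.85 to 61.8 ± 7.55 CPM (log2 fold change 0.66, edgeR adjusted p-value 5.239e-06) and was called under all 10 alternative settings. TXNIP, which binds and inhibits thioredoxin, rose from 192 ± 22.4 to 291 ± 34.7 CPM (0.60, 5.612e-06). In both genes every siOGT library lay above every siControl library. PRDX3, the mitochondrial peroxiredoxin, fell by 0.24 on the log2 scale (0.0128), and PRDX5, at -0.039, was not called (0.736). Without replicate 1 the list had 2 calls, both higher, against 12.5% of all genes called in that fit, and PRDX3 was at -0.21 (0.158). Without replicate 2 the list had 3 calls, 2 of them higher, against 22.5% of all genes.

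In the carbonyl and quinone list lower calls numbered 7 of 13 (53.8%) and higher calls 0, against 12.7% of all genes tested in each direction, and the median log2 fold change was -0.30. ABCC3, an exporter of conjugated compounds, fell from 16.0 ± 2.81 to 8.84 ± 1.197 CPM (log2 fold change -0.85, edgeR adjusted p-value 1.601e-05). UGDH, which makes the UDP-glucuronic acid used for conjugation, fell from 34.5 ± 0.988 to 25.5 ± 1.86 CPM (-0.44, 4.088e-04). PTGR1, a reductase of reactive alkenals, fell from 65.7 ± 3.45 to 50.2 ± 2.75 CPM (-0.39, 4.016e-04). All 3 genes were lower in 3 of 3 pairs without overlap of the groups, as was NQO1. AKR1B1, at -0.11, was not called (0.263). Without replicate 1 the list had 4 calls, all lower, against 6.54% of all genes called lower in that fit. Without replicate 3 it had 8 calls, 1 of them higher, against 11.4% of all genes called higher and 12.4% lower. Without the block edgeR called 0 and DESeq2 3, against 0.875% and 5.72% of all genes.

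The 3 remaining lists were small. Of 6 genes that supply NADPH, only IDH1 was called (16.7%, against 25.4% of all genes). IDH1 fell from 76.4 ± 10.9 to 53.8 ± 13.1 CPM (log2 fold change -0.52, edgeR adjusted p-value 8.873e-05), and TKT had a log2 fold change of -0.023 (0.848). Of 9 haem and iron genes 3 were called (33.3%, against 25.4% of all genes). FTL, the ferritin light chain, rose by 0.27 on the log2 scale (0.00918) and SLC48A1, a haem transporter, by 0.20 (0.0399). FECH, which inserts iron into protoporphyrin to form haem, fell by 0.36 (0.00331). FTH1, the ferritin heavy chain, was at 0.16 and was not called (0.105). Of superoxide dismutases and catalase, SOD1 fell by 0.33 (0.00159) and SOD3 by 0.33 (0.0217), and SOD2, with a log2 fold change of 0.10, was not called (0.456). Without replicate 1 FTL (0.27, 0.128), SLC48A1 (0.22, 0.161), SOD1 (-0.28, 0.0512) and SOD3 (-0.35, 0.0690) lost their calls, SOD3 also without replicate 2 (-0.20, 0.269) and SLC48A1 without replicate 3 (0.12, 0.185). DESeq2 with the replicate term called neither SLC48A1 (0.19, 0.0766) nor SOD3 (-0.33, 0.101). NADPH supply had 2 calls without replicate 3, both lower, against 12.4% of all genes called lower in that fit.

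Genes whose levels followed a member most closely were sought among the 9619 genes averaging 10 CPM or more, by Pearson's r of log2 CPM over the 6 libraries. With 6 libraries that share 2 groups and 3 pairs, very high values are found for many genes, and r is given as a description only. NFE2L2 was nearest to H1F0 (0.998) and ARID5A (0.997). NQO1 was nearest to GABBR1 (0.995) and BIRC5 (0.992), HMOX1 to MORC3 (0.993) and GNA13 (0.990), OSGIN1 to NFKBIB (0.997) and ESS2 (0.995), and SRXN1 to MACO1 (0.995) and BCKDHA (0.995). TXNRD1 was nearest to GSR (0.996), the glutathione reductase of the glutathione list, which fell from 37.7 ± 5.12 to 26.2 ± 3.17 CPM (log2 fold change -0.52, edgeR adjusted p-value 1.608e-04), and to GNB4 (0.995). KEAP1 was nearest to YIPF4 (0.987) and PPP5C (0.984), and GCLC to NDUFC2 (0.992) and ALG5 (0.989). No member was among the 2 nearest genes of another, but with so few of 9619 genes kept this does not show whether members varied together. Between members r ran from -0.85 (NQO1 and NFE2L2) to 0.87 (SRXN1 and NFE2L2).

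**Figure D5:**
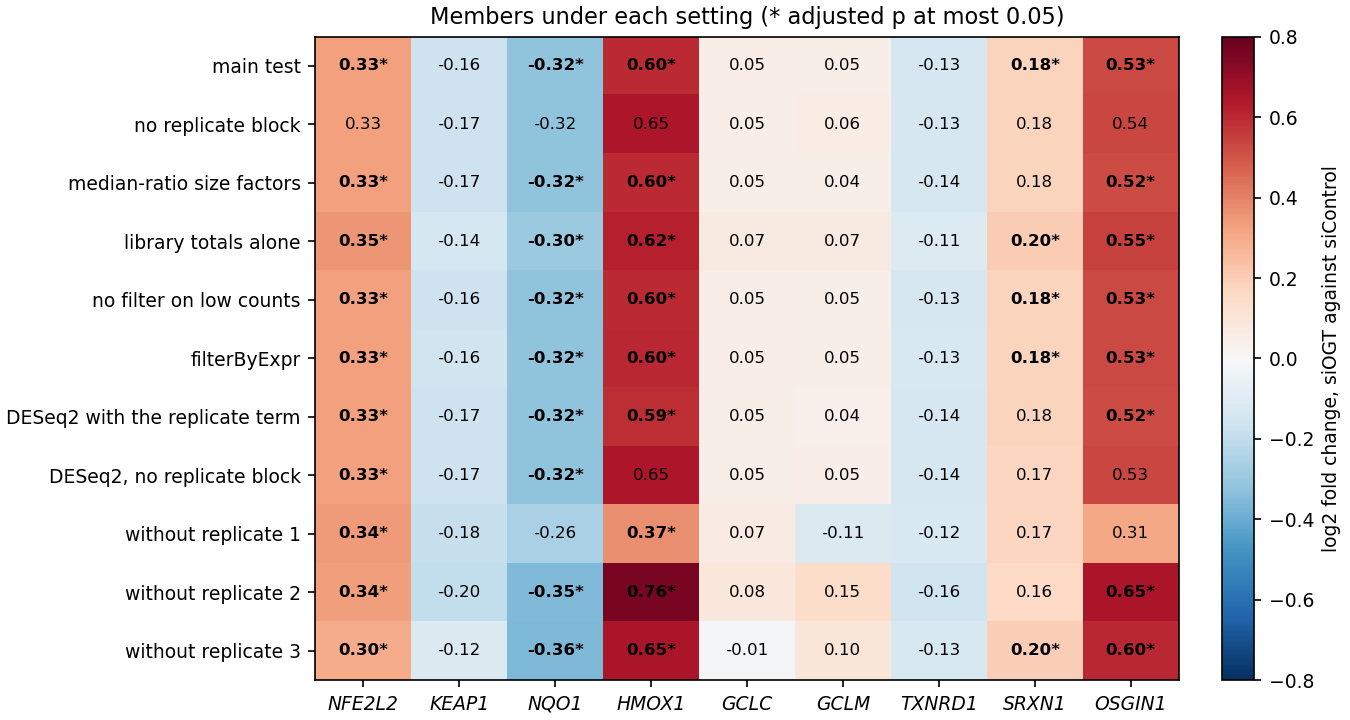
Log2 fold change of each member under the main test and 10 alternative settings, with an asterisk for an adjusted p-value of 0.05 or less. NFE2L2 keeps its asterisk in all rows but the one for edgeR without the replicate block, SRXN1 loses it in 6 rows, and the values of HMOX1, OSGIN1 and GCLM move most when replicate 1 is left out.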

How the data were processed

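RNA-seq libraries of LX-2 cells (3 siControl, 3 siOGT) were used, grouped and numbered as labelled. According to the methods and labels, the authors enriched RNA with oligo-dT, made stranded paired-end libraries, aligned reads to hg38 with Bowtie2 2.3.5.1 and counted them per gene with RSEM 1.3.1. The deposited values are expected counts, not normalized, in which a read matching several genes is divided between them. A deposited table of the authors' own comparison (means, log2 fold changes, p-values) was not used.

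Expected counts were rounded, genes with a total below 10 were removed (2054 of 16907, with 0.00447% of counts), libraries were scaled with TMM, and siOGT was tested against siControl by edgeR 4.0.16 in R 4.3.3 (quasi-likelihood F, two-sided), the replicate number being a block. SE and intervals came from the F statistic, CPM from totals and TMM factors. The procedure was tested on simulated data. The study's methods pair samples of one replicate, and deviations from group means over 12373 genes correlated between same-numbered libraries by 0.69, 0.53 and 0.33. No libraries of one group agreed within counting noise (chi-square per degree of freedom at least 20.3).

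Alternatives were no block, DESeq2 1.42.0, other scalings and filters, and leaving out each pair. Genes named from the lists were the 3 called with the largest changes and the most abundant uncalled one. Members and lists were chosen with earlier results of these data known. Lengths, overlaps and coordinates are from GENCODE 44, which may differ from the gene models used for counting. Promoter windows are from RefSeq. The 1000 and 5000 base windows were added after the data were seen. The genes nearest to GCLM are not reported here.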

Additional observations from a re-analysis of the deposited data

How the results depend on the processing

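Directions and calls of OGT, KEAP1 and TXNRD1 were the same under all 10 alternatives. Without the replicate block edgeR called 130 genes, 0 members and 1 wider pathway gene (2691, 4 and 25 before adjustment, at p of 0.05 or less). The log2 fold changes were then 0.33 for NFE2L2 (adjusted p-value 0.102), -0.32 for NQO1, 0.65 for HMOX1, 0.18 for SRXN1 and 0.54 for OSGIN1, none of them called. DESeq2 without the block called 849 genes, 2 members (NFE2L2 and NQO1) and 10 wider pathway genes, with HMOX1 at 0.65, SRXN1 at 0.17 and OSGIN1 at 0.53, not called. DESeq2 with the replicate term called 2415 genes (16.3% of those tested), 4 members and 24 wider pathway genes. NFE2L3, SLC48A1, SOD3 and SRXN1 (0.18) lost their calls there, SRXN1 also with median-ratio size factors (0.18). For these differences the cause was not tested.

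Leaving out 1 pair at a time gave from 1803 to 3439 genes called, or from 12.5% to 23.8% of the genes tested in each fit. The calls included from 2 (both higher, without replicate 1) to 5 members and from 16 to 39 wider pathway genes. The lowest counts were those without replicate 1. The log2 fold change ranged from -0.36 to -0.26 for NQO1, from 0.37 to 0.76 for HMOX1, from 0.16 to 0.20 for SRXN1, from 0.31 to 0.65 for OSGIN1, from -0.0077 to 0.085 for GCLC and from -0.11 to 0.15 for GCLM, GCLC and GCLM not being called. Of the list genes not called, PRDX5 (range -0.099 to 0.042) and SOD2 (-0.091 to 0.24) changed sign without replicate 1, SYVN1 (-0.013 to 0.050) without replicate 2 and TKT (-0.087 to 0.027) without replicate 3, and SOD2 was called without replicate 2. With 3 pairs, the change of SRXN1 was at the limit of what was called for this gene, and other genes have other limits.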
